A study of Mus musculus with 5 samples.

Results

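The heat shock chaperones described here are 10 genes of the mouse count table, chosen by symbol: Hspa1a, Hspa1b, Hspa8, Hsp90aa1, Hsp90ab1, Hsph1, Dnajb1, Dnaja1, Hspd1 and Hspe1. They are 10 of 23441 gene rows, and all 10 were among the 12710 genes with enough counts to be tested, Hspa1a only through its dCKO counts. The set was drawn up because Hspa1a and Hspa1b were already known to be far higher in the mutant libraries. The comparison of mutant with control is therefore given for these genes as a description, with no p-value. The series holds 5 libraries of poly(A) RNA from the mandible at embryonic day 10.5. Control tissue (3 libraries) had the genotype Yapf/f, Tazf/f on a 129SvEv background. The 2 libraries labelled dCKO had the genotype Wnt1Cre; Yapf/f, Tazf/f and the strain C57BL/6J x CBA/J; 129SvEv. The floxed Yap and Taz alleles were thus shared by all 5, and Wnt1Cre was named only for the dCKO tissue. Strain background and genotype cannot be told apart in this design. Wnt1Cre recombines in the neural crest, so other cells of the dissected tissue keep both genes. Whether each library is a separate embryo or a pool is not stated in the labels, so the p-values reflect the spread among the sequenced samples alone, part of which may be technical.

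Heat shock proteins are molecular chaperones: they bind unfolded or partly folded proteins and help them reach or regain their shape. HSP70 proteins work in cycles driven by ATP, in which J-domain proteins deliver the client and exchange factors such as the HSP110 protein release it. HSP90 proteins take over many signalling clients, and the mitochondrial chaperonin folds proteins inside a closed chamber. Most cells make large amounts of constitutive chaperones such as Hspa8 at all times. Hspa1a and Hspa1b encode the inducible HSP70, which is kept low in unstressed cells and is switched on by the heat shock factor HSF1 through heat shock elements in the promoter. Inducible HSP70 is also known from maturing red blood cells, where it protects the transcription factor GATA1.

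Hspa1a and Hspa1b are neighbouring copies, and their promoters are shown because they carry the element by which HSF1 acts and because they can hardly be told apart. In the RefSeq annotation of GRCm38.p6 (another build than the mm9 of the deposited counts), Hspa1b lies at chr17:34956429-34959238 and Hspa1a at chr17:34969359-34972156, both on the minus strand and 10120 bases apart. The 250 bases before each annotated start, from RefSeq, are printed 5′ to 3′, with GAANNTTC in capitals. GAANNTTC and TTCNNGAA are the arrangements in which neighbouring units of the heat shock element meet, and each reads the same on both strands.
Hspa1a, chr17:34972157-34972406, minus strand: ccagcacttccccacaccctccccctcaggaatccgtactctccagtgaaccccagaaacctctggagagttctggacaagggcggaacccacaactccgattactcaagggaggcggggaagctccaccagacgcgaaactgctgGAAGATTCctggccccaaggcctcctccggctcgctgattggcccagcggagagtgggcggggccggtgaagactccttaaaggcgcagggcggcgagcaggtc
Hspa1b, chr17:34959239-34959488, minus strand: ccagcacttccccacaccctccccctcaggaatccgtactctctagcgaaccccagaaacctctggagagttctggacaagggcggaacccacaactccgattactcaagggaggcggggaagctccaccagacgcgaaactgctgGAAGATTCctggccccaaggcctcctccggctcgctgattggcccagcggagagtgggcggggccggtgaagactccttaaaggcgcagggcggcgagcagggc
The windows share 247 of 250 bases, and the 3 differences, counted from 1 at the 5′ end of the window with the Hspa1a base first, are C44T, T47C and T249G. In both windows GAANNTTC starts 104 bases before the annotated start and is the same 8 letters, and a CCAAT motif (searched on both strands) starts 67 bases before it. GAANNTTC occurs in 6.69% of all 32851 RefSeq windows of this length and CCAAT in 33.85%.

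Constitutive members carry such motifs as well. Promoter windows were matched for 7 of the 10 members (12 windows, as some genes have several starts), and 7 of the 12 windows, from 6 of the 7 members, held GAANNTTC or TTCNNGAA, against 12.84% of all windows. The windows of Hspd1 and Hspe1 that hold it share the same bases. Hspd1 and Hspe1 are transcribed in opposite directions and their annotated spans overlap by 96 bases. The segment printed for Hspe1 lies before its start and before 1 of the 2 annotated starts of Hspd1, and the window of the other Hspd1 start had no match. The motifs are in capitals, and each sequence is 5′ to 3′ on the strand of its gene.
Hspe1, chr1:55088043-55088092, plus strand: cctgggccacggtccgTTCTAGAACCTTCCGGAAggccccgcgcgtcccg
Hsph1, chr5:149636346-149636385, minus strand: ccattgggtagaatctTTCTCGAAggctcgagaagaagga
Dnaja1, chr4:40722328-40722367, plus strand: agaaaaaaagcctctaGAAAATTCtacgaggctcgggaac
The Hspe1 segment holds TTCNNGAA, GAANNTTC and TTCNNGAA overlapping in 1 run, and 1.02% of all windows hold both motifs anywhere. Both windows of Dnajb1 had no match. Hspa8, Hsp90aa1 and Hsp90ab1 are described by their counts alone. A match of letters is no measurement of binding.

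Hspa1a and Hspa1b were scarce in control tissue and abundant by comparison in each dCKO library, while none of the other 8 members had a higher mean in dCKO. These 8 are called constitutive below for their high level in control tissue, although stress can induce Hsp90aa1, Hsph1 and Dnajb1 further. Hspa1a had 7, 8 and 16 raw counts in the controls, in the order of replicates 1, 2 and 3 used throughout, and 436 and 463 in the dCKO libraries, replicate 1 first. Scaled to library size (CPM, the usual parts-per-total unit for counts, with TMM library scaling, the scale of all levels below), these were 0.920, 1.08 and 2.44 CPM against 40.3 and 35.5 CPM. The lowest dCKO library was far above the highest control. The control mean was 1.48 ± 0.84 CPM (SD, n = 3) and the dCKO mean 37.9 ± 3.42 CPM (SD, n = 2), a ratio of 25.6 and a fitted log2 fold change of 4.70 (SE 0.28). Hspa1b had 34, 20 and 24 raw counts in the controls and 440 and 512 in dCKO. In CPM the controls measured 4.47, 2.71 and 3.67, and the dCKO libraries 40.7 and 39.2. The groups were again far apart, with 3.61 ± 0.88 CPM (SD, n = 3) and 39.9 ± 1.03 CPM (SD, n = 2), a ratio of 11.1 and a log2 fold change of 3.46 (SE 0.21). In the authors' deposited table, the fold changes were 23.9 for Hspa1a and 10.9 for Hspa1b. By size of fold among the 10747 genes averaging at least 5 CPM, Hspa1a ranked 6 and Hspa1b 64, and among all 12710 tested genes they ranked 19 and 96. Both reached the mean of 5 CPM only through the dCKO libraries.

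**Figure D1:**
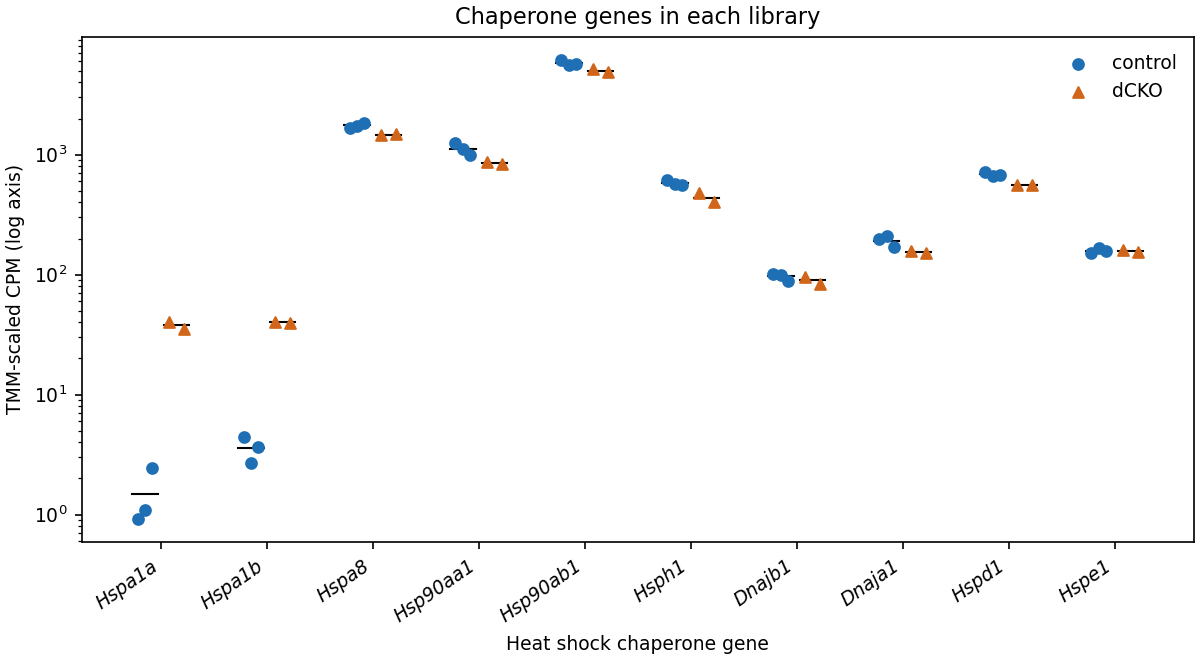
Level of each chaperone gene in each library, as TMM-scaled CPM on a log axis, with controls as circles, dCKO libraries as triangles and black lines for group means. Hspa1a and Hspa1b sit below 5 CPM in the 3 controls and between 35.5 and 40.7 CPM in dCKO. The 8 constitutive genes differ far less, and for 6 of them both dCKO libraries lie below all controls.

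Hspa8, the constitutive HSP70 of the cytosol, was the second most abundant member. It measured 1669, 1746 and 1842 CPM in the controls and 1449 and 1475 CPM in dCKO. Both dCKO values lay below all controls, with a log2 fold change of −0.26 (SE 0.09). Hsp90ab1, the constitutive HSP90, was the most abundant, with 6183, 5638 and 5726 CPM in the controls and 5135 and 4910 CPM in dCKO. Here too the dCKO libraries were lower, with a log2 fold change of −0.22 (SE 0.08). Hsp90aa1, the HSP90 copy that stress can induce further, measured 1247, 1116 and 993 CPM in the controls and 869 and 835 CPM in dCKO. The dCKO values were below all controls, with a log2 fold change of −0.39 (SE 0.11). Hsp90aa1 counts were 20.2%, 19.8% and 17.3% of Hsp90ab1 counts in the controls and 16.9% and 17.0% in dCKO, so that the stress-linked copy did not gain on the constitutive one.

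The genes that serve the HSP70 cycle and those of the mitochondrial chaperonin were at or below their control level. Hsph1, the HSP110 exchange factor and itself a heat-inducible gene, measured 619, 573 and 554 CPM in the controls and 477 and 401 CPM in dCKO. Its log2 fold change was −0.41 (SE 0.11), the lowest of the 10. Dnajb1, the stress-inducible J protein that pairs with inducible HSP70, measured 102, 100 and 88.8 CPM in the controls and 96.3 and 82.9 CPM in dCKO. The Dnajb1 groups overlapped, with a log2 fold change of −0.11 (SE 0.12). Dnaja1, a J protein of the cytosol, measured 198, 208 and 169 CPM in the controls and 156 and 153 CPM in dCKO, a log2 fold change of −0.31 (SE 0.13). Hspd1, the mitochondrial chaperonin, measured 718, 667 and 673 CPM in the controls and 554 and 556 CPM in dCKO, a log2 fold change of −0.31 (SE 0.10). Neither of these genes had a dCKO value within the range of the controls. Hspe1, the lid of that chaperonin, has the promoter segment printed above. It measured 152, 166 and 158 CPM in the controls and 160 and 155 CPM in dCKO, and its groups overlapped (log2 fold change −0.01, SE 0.12). Within the libraries, Hspe1 counts were 21.2%, 24.9% and 23.4% of Hspd1 counts in the controls and 28.9% and 27.9% in dCKO, so this pair did not keep 1 ratio.

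In the edgeR fit across all genes (called at an adjusted p below 0.05), 4 of the 10 members were called, Hspa1a and Hspa1b as higher and Hsp90aa1 and Hsph1 as lower. Of all tested genes, 6.42% were called, 5.0% as higher and 1.42% as lower. The groups did not overlap for 8 of the 10 members, 2 with dCKO higher and 6 with dCKO lower, against 37.6% of all tested genes (19.0% higher and 18.6% lower). Since the set was formed on this comparison, these counts describe it and test nothing. The 8 constitutive members had log2 fold changes from −0.41 to −0.01 with a median of −0.28, where the median of all tested genes was 0.00. Of 13 alternative analyses, Hspa1a and Hspa1b were called in 13, with log2 fold changes of 4.45 to 5.22 and 3.25 to 3.66. The call of Hsp90aa1 was lost in 6 of them and that of Hsph1 in 4. Hsp90aa1 lost its call when control replicate 1, control replicate 2 or a dCKO library was left out, and Hsph1 when control replicate 1, control replicate 2 or dCKO replicate 2 was, at log2 fold changes of −0.41 to −0.30 and −0.42 to −0.28. With the trend with GC content removed, the log2 fold change of Hsp90aa1 was −0.23, that of Hsph1 −0.33 and that of Dnaja1 −0.11. In the authors' deposited table, 2 of the 10 members had an adjusted p below 0.05, both of the inducible pair.

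**Figure D2:**
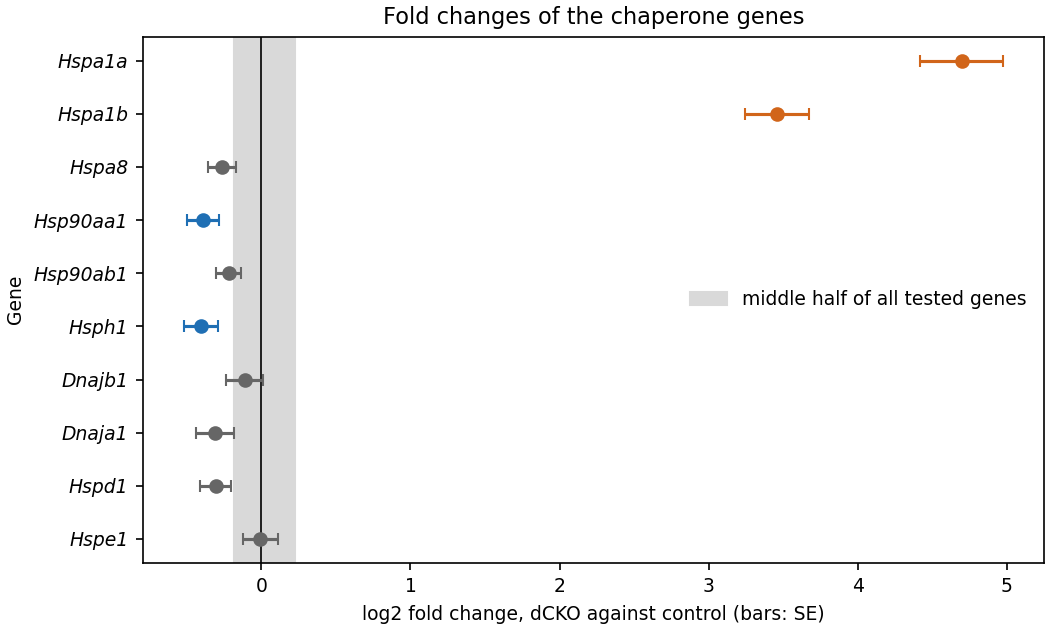
Fitted log2 fold change of each chaperone gene, dCKO against control, with bars for the SE, orange and blue for genes called higher and lower, and a grey band for the interquartile range of all tested genes. Hspa1a (4.70) and Hspa1b (3.46) stand far to the right, and the other 8 lie between −0.41 and −0.01.

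Ratios within a library do not depend on its depth or scaling, and they showed the split between inducible and constitutive HSP70 directly. Summed Hspa1a and Hspa1b counts were 0.323%, 0.217% and 0.332% of the Hspa8 counts in the controls and 5.59% and 5.06% in dCKO. The group means were 0.291% ± 0.064 (SD, n = 3) and 5.32% ± 0.37 (SD, n = 2), 18.3 times higher in dCKO. Against the summed counts of all 8 constitutive members, the pair stood at 0.0488% ± 0.0114 (SD, n = 3) and 0.891% ± 0.027 (SD, n = 2), 18.2 times higher. Even in dCKO tissue the inducible pair thus remained a small part of HSP70 transcripts. Its share of the summed counts of Hspa1a, Hspa1b and Hspa8 was 5.29% and 4.82% in the dCKO libraries and at most 0.331% in a control. By contrast, Dnajb1 counts were 4.82% to 6.09% of Hspa8 counts in the controls and 5.62% and 6.64% in dCKO. Hsph1 counts were 30.1% to 37.1% of Hspa8 counts in the controls and 32.9% and 27.2% in dCKO, so neither partner gene followed the inducible pair.

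Per kilobase of transcript, the mean of Hsp90ab1 in control tissue was 4647 times that of Hspa1a, and 3494 times with coding length. Either ratio is rough, as Hspa1a rests on 7 to 16 counts per control. Hsp90ab1 stood at 2321 ± 116 CPM per kb (SD, n = 3), Hspa8 at 732 ± 36.3 and Hsp90aa1 at 341 ± 38.7. Hspd1 (283 ± 11.5), Hspe1 (205 ± 9.16) and Hsph1 (153 ± 8.88) followed, and the ranges of these 6 genes over the 3 controls did not overlap. Dnaja1 at 34.1 ± 3.64 and Dnajb1 at 32.3 ± 2.33 CPM per kb had overlapping ranges. Hspa1b at 1.29 ± 0.31 and Hspa1a at 0.4995 ± 0.28 CPM per kb were lowest, with ranges of 0.965 to 1.59 and 0.310 to 0.824. In dCKO the pair reached 14.2 and 12.8 CPM per kb on average, still below Dnaja1 at 27.5 and Dnajb1 at 29.9. Lengths are those of the longest protein-coding transcript in GENCODE M21. With coding length instead, Hspe1 moved from the fifth to the third place and the other members kept their relative order.

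The balance within the pair also differed between libraries. Hspa1a made up 17.1% of the 41 pair counts in control replicate 1 (95% exact Clopper-Pearson interval 7.15 to 32.1), 28.6% of 28 in replicate 2 (13.2 to 48.7) and 40.0% of 40 in replicate 3 (24.9 to 56.7). In dCKO it made up 49.8% of 876 (46.4 to 53.1) and 47.5% of 975 (44.3 to 50.7). All controls were below both dCKO libraries, but the interval of control replicate 3 holds both dCKO values and that of control replicate 2 holds the value of dCKO replicate 2. The intervals cover counting error only. The single levels of the pair are uncertain. Of all stretches of 100 bases in the Hspa1a transcript, 47.1% occur letter for letter in Hspa1b, so reads from them could not be assigned. The sources used here do not say how the authors treated such reads. If they were left out, the summed level of the pair, its ratio to other genes within a library and its place in the order per kilobase are too low. Summed to 1 gene before the fit, the pair had a log2 fold change of 3.94 (SE 0.18).

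**Figure D3:**
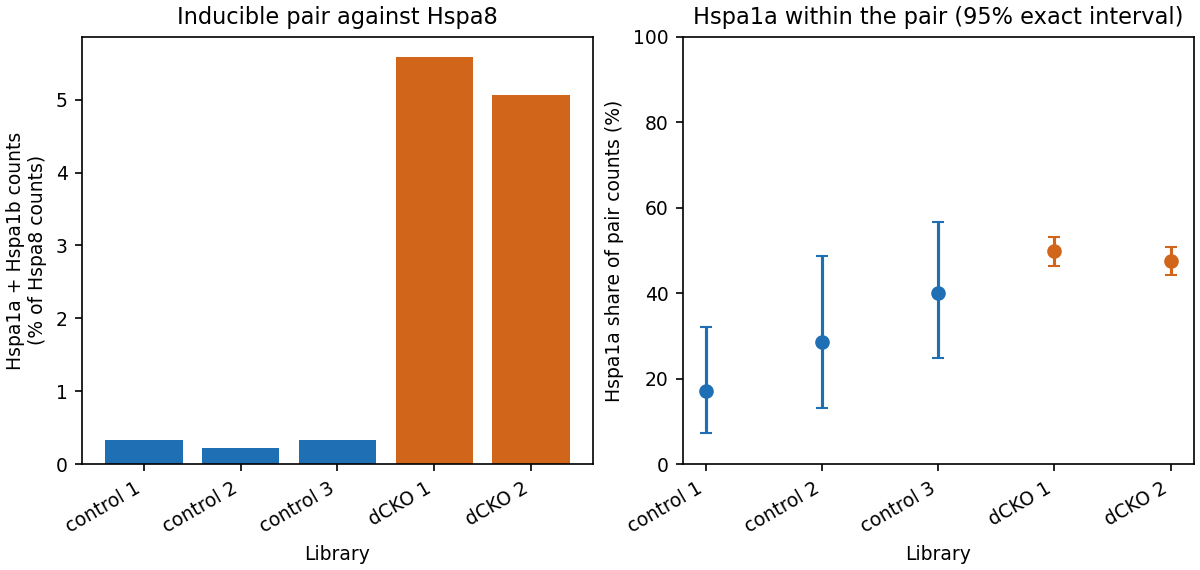
Left, summed Hspa1a and Hspa1b counts as a percentage of Hspa8 counts in each library, below 0.4% in the 3 controls and 5.59% and 5.06% in the dCKO libraries. Right, the share of Hspa1a in the pair's counts with its 95% exact interval, from 17.1% to 40.0% in the controls and near 50% in dCKO.

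Markers of red cells moved with the inducible pair. Globins of the embryo (Hba-x, Hbb-bh1 and Hbb-y) together made up 0.377% ± 0.057 (SD, n = 3) of the control counts and 7.43% and 5.30% of the dCKO counts, 16.9 times more on average, where the summed CPM of the pair was 15.3 times higher. The globin share is of raw counts and the CPM of the pair is TMM-scaled, so these ratios are not on the same scale. All 9 tested red cell markers were called higher, and the summed CPM of that list was 3407 to 4416 in the controls and 55600 to 79810 in dCKO. The adult globins of the list (Hba-a1, Hba-a2, Hbb-b1 and Hbb-b2) were listed at 0 in all 5 libraries. How reads shared by similar genes were counted is not stated, so a listed 0 does not show that a gene was silent. All 7 tested megakaryocyte and platelet markers were also called higher, with summed CPM of 9.32 to 17.7 in the controls and 100 to 186 in dCKO. Counts of the pair were 0.125%, 0.109% and 0.184% of the embryonic globin counts in the controls and 0.104% and 0.138% in dCKO, and these ranges overlap. They were 15.8%, 11.6% and 21.4% of the counts of Alas2, which starts haem synthesis in the red cell line, in the controls and 15.3% and 15.5% in dCKO, which overlap too. Both ratios were computed after the values had been seen, and the part of red cells in the rise of the pair was not tested. In bulk tissue, fewer cells of a type and less RNA per cell cannot be told apart.

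The genes whose profile over the 5 libraries was most like that of the pair were ranked by the root mean square difference of log2 CPM after centring on the control mean, among the 10747 genes averaging at least 5 CPM. Nearest to Hspa1a were Rhd (0.28), Kcnn4 (0.31), Tspan32 (0.37), Rhag (0.38) and Adra2b (0.44). Rhd and Rhag encode Rh blood group proteins of the red cell membrane, and Rhag went from 1.78 ± 0.64 CPM (SD, n = 3) to 44.1 ± 0.01 CPM (SD, n = 2). Nearest to Hspa1b were Tal1 (0.14), Zc3hav1 (0.15), Abcg4 (0.19), Klf1 (0.19) and Slc25a37 (0.20). Tal1 and Klf1 encode blood transcription factors and Slc25a37 the mitochondrial iron importer mitoferrin. Tal1 went from 10.8 ± 1.73 CPM (SD, n = 3) to 121 ± 10.8 CPM (SD, n = 2). Hspa1a and Hspa1b themselves were 0.96 apart on this measure, so neither was among the 5 nearest genes of the other. That distance rests on the single levels of the pair, which are uncertain, and on 7 to 16 counts of Hspa1a in the controls. The nearest genes were picked for their likeness in the same libraries, and apart from Tal1, Klf1 and Slc25a37 they reached the mean of 5 CPM only through dCKO.

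**Figure D4:**
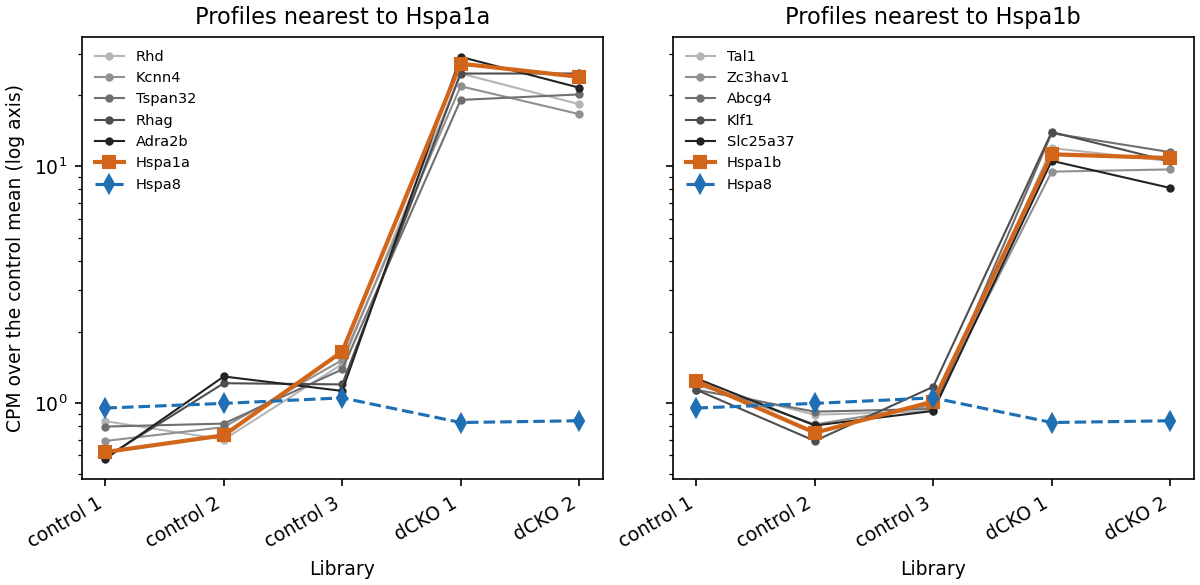
Level of Hspa1a (left) and Hspa1b (right) in each library as CPM over the control mean, on a log axis, with their 5 nearest genes in grey and black and Hspa8 as a dashed blue line. The grey and black genes were picked for their likeness to the pair in these libraries, so their shared rise follows from the choice, and Hspa8 lies just below its control level in dCKO.

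Other genes of the chaperone network were examined with 10 lists that hold 129 genes outside the set, of which 118 were tested. Of these, 3 rose and 3 fell (edgeR adjusted p below 0.05), or 5.08%, close to the 6.42% of all tested genes. By direction, 2.54% were higher, against 5.0% of all tested genes, and 2.54% lower, against 1.42%. The median log2 fold change of the 118 was −0.10, and 53 of them had groups that did not overlap (44.9%, against 37.6% of all tested genes). Counts at an unadjusted edgeR p below 0.05 are given for the lists without a share over all tested genes, so they have no background to be read against. Of 16 other heat-inducible targets of HSF1, 0 rose in the edgeR fit and 1 fell, where at an unadjusted p below 0.05 1 was higher and 5 were lower, with a median of −0.05. That gene was Chordc1, an HSP90 partner, at 138, 145 and 116 CPM in the controls and 99.0 and 95.4 CPM in dCKO (log2 fold change −0.46, SE 0.13, edgeR adjusted p = 0.0408). Bag3, an HSP70 exchange factor and a sensitive HSF1 target named outside the rule for genes, measured 40.1, 41.9 and 41.7 CPM in the controls and 35.1 and 40.7 CPM in dCKO. Of the 3 tested genes among heat shock factors and their binding protein, 0 were called by edgeR. At an unadjusted edgeR p below 0.05, 1 was higher and 1 lower. Hsf1 itself measured 86.4 ± 9.97 CPM (SD, n = 3) and 97.0 ± 4.78 CPM (SD, n = 2).

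The genes that rose belonged to the HSP70 and J protein families. Of 11 other HSP70 and HSP110 genes, 2 rose and 1 fell, with a median of −0.20. Hspa1l, a relative of the pair, lies on the strand opposite to Hspa1a and points away from it, with 546 bases between their annotated starts. Hspa1l had 2, 1 and 3 raw counts in the controls and 29 and 35 in dCKO. The ratio of scaled counts was 9.63 (95% exact Poisson interval 4.19 to 27.2, counting error only), and the gene was called (edgeR adjusted p = 0.00249). Hspa1l met the filter on low counts only through the dCKO libraries and was not tested under the stricter filter. Hspa12b, an HSP70 relative known from endothelial cells, rose from 27.6, 31.0 and 36.8 CPM to 55.3 and 55.0 CPM (log2 fold change 0.80, SE 0.15, edgeR adjusted p = 0.00151). Of 8 endothelial markers tested beside it, 1 was called higher, with summed CPM of 251 to 283 in the controls and 276 to 319 in dCKO, and their part in the rise of Hspa12b was not tested. Of 38 tested J protein genes outside the set, 1 rose and 0 fell in the edgeR fit, where 2 had an unadjusted p below 0.05 above and 4 below their control level. Dnaja4 rose from 3.28, 2.57 and 1.68 CPM to 9.61 and 15.2 CPM (log2 fold change 2.29, SE 0.32, edgeR adjusted p = 6.43e-05). Dnaja4 counts were 0.0507% to 0.0762% of globin counts in the controls and 0.0123% and 0.0281% in dCKO, where the groups did not overlap, a ratio computed after the values were seen.

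Chaperones of the endoplasmic reticulum lay mostly below their control level. Of 16 tested, 2 fell and 0 rose (7 lower and 0 higher at an unadjusted p below 0.05), 15 had a log2 fold change below 0, and the median was −0.23. Of all tested genes, 1.42% were called lower and 5.0% higher, and 49.9% had a log2 fold change above 0. Hspa5, the HSP70 of this compartment, measured 1215, 1083 and 1006 CPM in the controls and 860 and 809 CPM in dCKO (log2 fold change −0.40, SE 0.11, edgeR adjusted p = 0.0275). Hsp90b1, its HSP90, measured 1094, 1076 and 905 CPM in the controls and 732 and 802 CPM in dCKO (log2 fold change −0.42, SE 0.11, edgeR adjusted p = 0.0256). Hspa5, Hsp90b1 and Chordc1 each lost their call when control replicate 1, control replicate 2 or a dCKO library was left out, at log2 fold changes of −0.48 to −0.32, and when the trend with GC content was removed, at −0.28, −0.26 and −0.16. Of 16 HSP90 genes and cochaperones, 2 fell (Hsp90b1 and Chordc1) and 0 rose (7 lower and 1 higher at an unadjusted p below 0.05), with a median of −0.12.

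The remaining lists gave no call in the edgeR fit. Of 14 tested subunits of the CCT chaperonin and prefoldin, which fold actin and tubulin, 0 were called (4 lower and 1 higher at an unadjusted p below 0.05), with a median of −0.18. Its most abundant subunit, Cct5, measured 975 ± 44.4 CPM (SD, n = 3) and 905 ± 1.76 CPM (SD, n = 2). Of 12 other mitochondrial chaperones and proteases, 0 were called (2 lower and 1 higher at an unadjusted p below 0.05), with a median of −0.01. Hspa9, the mitochondrial HSP70, measured 515 ± 15.0 CPM (SD, n = 3) and 432 ± 22.8 CPM (SD, n = 2). Of 11 HSP70 regulators, 0 were called (1 higher at an unadjusted p below 0.05), and of 4 small heat shock proteins, 0 were called (1 higher at an unadjusted p below 0.05). That gene was Hspb8, a partner of Bag3 and also in the list of HSF1 targets, at 12.9, 21.6 and 11.9 CPM in the controls and 25.6 and 22.7 CPM in dCKO (log2 fold change 0.64, SE 0.22, edgeR adjusted p = 0.0989), with groups that did not overlap. Hspb1, a small heat shock protein that heat shock induces strongly, measured 4.07, 6.22 and 5.19 CPM in the controls and 6.38 and 5.51 CPM in dCKO, so its groups overlapped.

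**Figure D5:**
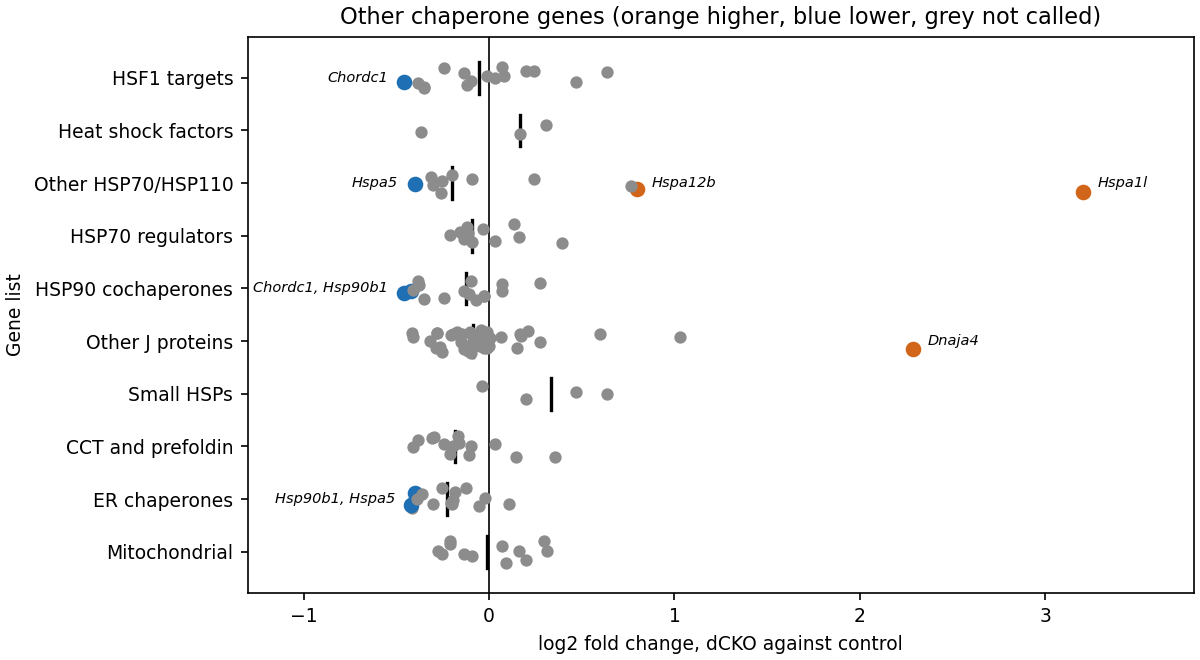
Fitted log2 fold change, dCKO against control, of each tested gene in 10 chaperone lists without the 10 genes of the set, with black bars for list medians and colour for genes called higher or lower. Hspa1l, Dnaja4 and Hspa12b stand to the right, and the called lower genes Chordc1, Hspa5 and Hsp90b1 lie between −0.46 and −0.40.

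Across the libraries, total counts ran from 6491137 to 13298973, both dCKO libraries being deeper than any control. Yap1 stood at 433 ± 107 CPM (SD, n = 3) against 172 ± 3.30 CPM (SD, n = 2) in dCKO, and Wwtr1, the symbol of Taz, 56.5 ± 15.7 and 22.8 ± 0.06 CPM, and for both genes the dCKO libraries lay below all controls. All 10 markers of mandibular arch mesenchyme were detected and tested, with summed CPM of 2046 to 2184 in the controls and 1928 to 1988 in dCKO. Of these, Dlx6, Dlx5 and Prrx1 were called lower, at log2 fold changes of −0.76, −0.44 and −0.42, and Alx4 higher, at 0.48. Of 9 myeloid markers 6 were tested and 1 was called higher, and of 7 epithelial markers 3 were called higher.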

How the data were processed

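For 5 poly(A) libraries (Ion Total RNA-Seq v2, per the labels' protocols), the deposited table holds raw counts by gene symbol. The submitters' processing notes name mm9, DESeq 1.16.0 and HTSeq 0.5.4p3. Aligner, annotation and strand setting: not given in the sources used here. Without them, antisense and overlapping genes cannot be separated. The authors' deposited comparison holds, per the file headers, a signal (mean normalized count), the fold change as a ratio, its log2 value, and a p-value with its adjusted form. The row for reads in no gene took 41.9% of its mean normalized counts, and the count table has no such row.

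The test used edgeR 4.0.16 in R 4.3.3: filterByExpr (minimum count 10, total 15), TMM scaling, and the quasi-likelihood F test (two-sided) with Benjamini-Hochberg adjustment over 12710 genes at 0.05. Standard errors were derived from the log2 fold change and its F. The fit was tested on simulated data. No 2 replicates agreed within sampling noise (chi-square of 4.43 to 14.1 per gene). The chaperone genes and lists were chosen with earlier results of these data known. Named genes are the 10 chaperones, up to 4 called genes of each list or else up to 2 of its most abundant, the nearest profiles, Yap1, Wwtr1 and the embryonic globins. Bag3 and Hmox1 were added after their values were seen. Transcript lengths and GC content came from GENCODE M21 (GRCm38), with GC found for 99.3% of tested genes, and promoters from RefSeq (GRCm38.p6). Alternatives were RLE scaling, DESeq2 1.42.0, limma-voom (limma 3.58.1), no filter beyond 1 count, a stricter filter (1 CPM in 2 libraries, mean of 5 CPM), red cell genes left out of library sizes, the GC trend removed, each library left out, and a replicate block.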

Additional observations from a re-analysis of the deposited data

How the results depend on the processing

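The counts of called genes moved with the libraries used. Over the 13 alternatives, the log2 fold change of Hspa1a was 4.45 to 5.22 and that of Hspa1b 3.25 to 3.66. The pair was chosen for its rise in these same libraries, so these ranges describe it and test nothing. Over all genes, 636 were higher and 180 lower. With single libraries left out, 403 to 950 were higher and 39 to 687 lower. Without a filter on low counts 305 were lower. Among the 10 chaperones, 2 were higher and 2 lower. The lower count was 0 to 4 with single libraries left out, 1 with the stricter filter and 1 with the GC trend removed, and the higher count was 1 with Hspa1a and Hspa1b summed. Among the other chaperone genes, 3 were higher and 3 lower. The lower count was 0 to 17 with single libraries left out, 6 with DESeq2 and 1 with the GC trend removed, and 5 were higher without a filter. The causes were not tested.

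The inducible pair over Hspa8 was 18.3 times higher in dCKO, 31.1 times for Hspa1a alone, 13.2 times for Hspa1b alone, and 16.3 to 19.7 times with single libraries left out, an alternative chosen after seeing the data, as was the sum of the 8 constitutive genes as denominator (18.2 times). With the replicate number as a block, 1200 genes were higher and 921 lower, 4 chaperones were lower, and 7 of the other chaperone genes were higher and 18 lower. Number 3 occurs only among the controls, so the block takes up control replicate 3 and the group comparison rests on the other libraries. The log2 fold change of Hspa1a was 5.22 with the block and 5.22 without control replicate 3, so these alternatives are not independent. In the labels, libraries with the same number share only that number. Deviations from the group means correlated at 0.09 for number 1 and −0.01 for number 2, across genes. With 2 dCKO libraries, their deviations mirror each other, so each control correlates with them at opposite signs. These values therefore cannot decide whether the numbers mark pairs.

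Depth limits the inducible pair in the controls, where Hspa1a rests on 7 to 16 counts. With 1 dCKO library left out, the spread of the remaining one is assumed to equal that of the controls.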

Other observations

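Other stress genes moved in part. Of 7 genes of the oxidative stress response, 1 rose and 0 fell in the edgeR fit (1 higher and 1 lower at an unadjusted p below 0.05, median log2 fold change 0.03). Gclm, a subunit of the enzyme that starts glutathione synthesis, rose from 24.8, 25.7 and 18.6 CPM in the controls to 54.7 and 58.7 CPM in dCKO (log2 fold change 1.29, SE 0.16, edgeR adjusted p = 1.10e-05). Hmox1, the stress-inducible haem oxygenase, named after its values were seen, measured 19.7, 17.3 and 21.8 CPM in the controls and 18.7 and 21.2 CPM in dCKO, with overlapping groups.

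Of 11 tested immediate early genes, which respond within minutes to growth factors and to handling, 3 rose and 0 fell in the edgeR fit (7 higher and 0 lower at an unadjusted p below 0.05, median log2 fold change 0.84), where 5.0% of all tested genes were called higher and 1.42% lower. Btg2, an antiproliferative gene, rose from 5.52, 4.19 and 6.42 CPM to 18.2 and 19.3 CPM (log2 fold change 1.81, SE 0.23, edgeR adjusted p = 2.47e-05). Dusp1, a phosphatase of MAP kinases, rose from 12.6, 15.0 and 15.0 CPM to 24.68 and 26.04 CPM (log2 fold change 0.84, SE 0.18, edgeR adjusted p = 0.00594). Egr1, a zinc finger transcription factor, rose from 1.58, 2.30 and 1.99 CPM to 4.81 and 12.3 CPM (log2 fold change 2.14, SE 0.40, edgeR adjusted p = 0.00161). When dCKO replicate 2 was left out, the calls of Egr1 (edgeR adjusted p = 0.224) and Dusp1 (edgeR adjusted p = 0.0722) were lost. In the same libraries the embryonic globins took 16.9 times the share of counts they took in the controls, and their part in these changes was not tested.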
